A study of Mus musculus with 30 samples.

Results

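The Jak-Stat genes described here are Jak1, Jak2, Stat3, Stat5a, Stat5b, Stat6, Socs2, Socs3 and Cish. They were taken by name, and all 9 were found among the 11137 genes of the expression table. Janus kinases (Jak1, Jak2) sit on the inner tails of cytokine and hormone receptors and, once a ligand binds, phosphorylate Stat proteins, which pair up and move to the nucleus to switch on genes. Among those genes are the Socs family members, including Cish, whose products bind receptors or kinases and close the loop as negative feedback. In the mammary gland, prolactin acting through Jak2 and Stat5a drives alveolar differentiation and milk protein genes, Stat3 takes part in post-lactational involution, and Stat6 answers interleukin-4 and interleukin-13.

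Their levels were measured by 3′ mRNA sequencing in 30 libraries of luminal and basal cells sorted from the mammary glands of 17 female mice, each library being 1 lineage of 1 mouse. Control mice, called K8imTmG, carried the K8rtta, TET-O-CRE and mTmG alleles. K8iΔRank mice carried in addition homozygous RANK fl/fl. All mice of both genotypes drank doxycycline at 1 mg/ml, according to the labels from 3 to 8 weeks of age, although the methods start it later. The Krt8 promoter confines the induced Cre, and with it Rank deletion and the switch from Tomato to GFP, to luminal cells, so that basal cells of K8iΔRank mice keep Rank. Luminal cells were sorted as GFP+ CD49f low CD24 high and basal cells as CD49f high CD24 low. Parous glands were taken after pregnancy and involution, and the methods state that K8iΔRank dams failed to lactate after birth, so parous K8imTmG and parous K8iΔRank mice also differ in their history of lactation. The mice had a mixed genetic background, and virgin mice were matched to parous mice for age. The luminal libraries comprised 3 virgin K8imTmG, 3 virgin K8iΔRank, 5 parous K8imTmG and 4 parous K8iΔRank mice, and the basal libraries 3, 4, 4 and 4 mice in the same order. Both lineages came from the same animal in 13 mice.

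The deposited values are normalized counts, that is, deduplicated reads per gene divided by a size factor for the library. Depth ranged from 340445 to 3130419 recovered reads per library, with 1 read worth 0.381 to 5.43 normalized counts. The RNA integrity number averaged 6.9 over the samples, with a range of 2.5 to 8.6. It is not given for single libraries, and its part in any difference was not tested. The sorted lineages matched their labels, since the summed count of 12 basal markers was 13214 to 23566 in basal libraries and 105 to 437 in luminal libraries. Rank itself (Tnfrsf11a) was not lower in luminal libraries labelled K8iΔRank, with a log2 difference from K8imTmG of 0.33 in virgin and -0.01 in parous mice (limma adjusted p = 0.687 and 0.992). Tags at the end of a transcript need not register a deletion of internal exons, and which exons are floxed is not given in the sources used here. Whether this bears on the Rank counts was not tested. By qPCR, the paper reports less Rank RNA in luminal GFP+ cells sorted from K8iΔRank mice. A split that the labels do not explain runs through the libraries. Clec2d, a lectin gene, was at 65.6 to 199 normalized counts in 14 libraries and at 0.641 to 8.68 in the other 16, and 10 of the 13 mice had their luminal and basal libraries on opposite sides. In luminal cells the 3 virgin K8imTmG libraries were on the low side and the 3 virgin K8iΔRank libraries on the high side, whereas in basal cells the 3 virgin K8imTmG libraries were high and the 4 virgin K8iΔRank libraries low. The 4 parous K8iΔRank luminal libraries were low and the 4 parous K8imTmG basal libraries high. Both sides were present only among parous K8imTmG luminal libraries, 2 high and 3 low, and parous K8iΔRank basal libraries, 2 and 2. Among Clec2d-low parous luminal libraries, Rank was at 49.3, 50.4 and 64.9 in K8imTmG and at 27.0, 32.3, 34.3 and 41.1 in K8iΔRank mice. The 2 high K8imTmG libraries were at 12.8 and 20.2. In virgin luminal cells the Rank difference cannot be told apart from the split, and the part of the split in the Rank values was not tested. Depth moved with the split, from a median of 878946.5 reads in Clec2d-high to 2478110 reads in Clec2d-low libraries.

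The first question is how the pathway genes differ between the lineages. Averaged over stages and genotypes, luminal cells held more Jak2, Stat5a, Stat5b, Socs2, Jak1 and Stat3 RNA than basal cells, and basal cells held 4.12-fold more Socs3. In the limma fit of all 30 libraries, 7 of the 9 genes passed an adjusted p below 0.05, against 55.7% of the 11133 genes tested. Of the 9, 6 were higher in luminal cells and 1 lower, beside 28.7% and 27.0% of all genes. No member kept its 15 luminal libraries wholly apart from the 15 basal ones, as 9.57% of genes did. Most genes of the table thus differed between the lineages as well. The median log2 difference was 0.40 over the 9 genes and 0.04 over all genes. Because the libraries are pools of sorted cells, fewer cells of an expressing type and less RNA per cell cannot be told apart in any comparison.

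Jak2, the kinase bound to the prolactin and growth hormone receptors, separated the lineages most evenly. Its normalized count had a lowest, median and highest value of 57.4, 79.0 and 153 in the 15 luminal libraries and of 23.0, 51.2 and 68.4 in the 15 basal libraries. The ranges met only between 57.4 and 68.4. The log2 difference on the log2(normalized count + 1) scale was 0.89 (standard error 0.14, limma adjusted p = 2.2e-06), and Jak2 was higher in luminal cells in 13 of the 13 mice with both lineages, by 0.13 to 1.67. Jak1, the kinase shared by interferon and interleukin-6 type receptors, spanned 177 to 481 in luminal libraries (median 281) and 147 to 336 in basal libraries (median 223). Its difference was smaller at 0.40 (standard error 0.10, limma adjusted p = 0.0012) and held in 8 of 13 mice. The exceptions were all K8iΔRank mice, parous 787 and 798 and virgin 821, 822 and 825, at -0.58 to -0.11. Whether the lineage difference of Jak1 depended on genotype was not tested. Clec2d-low libraries made up 10 of the 15 luminal but 6 of the 15 basal libraries, and with the Clec2d side as a term Jak1 kept a difference of 0.26 (limma adjusted p = 0.021).

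Of the Stat genes, Stat5a and Stat5b, which carry the prolactin signal, showed the larger lineage differences. Stat5a ran from 41.9 over a median of 107 to 299.9 in luminal libraries and from 31.3 over 66.1 to 100.4 in basal libraries. The luminal excess of 0.79 had a standard error of 0.19 (limma adjusted p = 0.00071) and was seen in 12 of 13 mice. Stat5b ran from 84.5 over 115 to 188 in luminal and from 39.8 over 81.3 to 186 in basal libraries. The difference was 0.56 (standard error 0.12, limma adjusted p = 0.00032), again in 12 of 13 mice, and the top basal value belonged to virgin K8iΔRank mouse 820. Stat3, with 399 to 872.8 in luminal and 332 to 665 in basal libraries, was higher by only 0.24 (standard error 0.10, limma adjusted p = 0.042). It was higher in luminal cells in 9 of 13 mice, the others being virgin K8imTmG mouse 538 and virgin K8iΔRank mice 821, 822 and 825. The Stat3 call was lost in 3 of 10 alternative settings, among them mouse as a block (difference 0.17, limma adjusted p = 0.238). It was also lost when any of 11 of the 17 mice was left out, mouse 531 lowering the difference most, to 0.16 (limma adjusted p = 0.178). Stat6 spanned 46.1 to 79.2 in luminal and 33.1 to 72.7 in basal libraries, and its difference of 0.19 did not pass (limma adjusted p = 0.117, 95% interval -0.02 to 0.41).

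The feedback genes parted in direction. Socs3, an inhibitor of the gp130 receptor and of Jak kinases that is induced by Stat3, was at 154.6 to 2264 in basal libraries (median 1231) and at 36.3 to 924.9 in luminal libraries (median 224). The ranges overlapped only through 3 virgin K8iΔRank libraries, basal mice 820 and 825 and luminal mouse 821, since the lowest other basal value was 700.1 and the highest other luminal value 538. The log2 difference of luminal against basal was -2.04 (standard error 0.32, limma adjusted p = 3.3e-06), and 12 of 13 mice had more Socs3 in basal cells. Socs2, a feedback gene of growth hormone and prolactin signalling, went the other way, with 151 to 435 in luminal (median 308) and 51.8 to 302 in basal libraries (median 167). Its luminal excess was 0.79 with a standard error of 0.15 (limma adjusted p = 6.2e-05), present in 12 of 13 mice. Cish, a direct Stat5 target that dampens Stat5 signalling, spanned 23.1 to 126 and 16.3 to 111, and its difference of 0.27 did not pass (limma adjusted p = 0.371, 95% interval -0.24 to 0.78). In single mice Cish went in either direction, higher in luminal cells in 5 and in basal cells in 8. The 5 were all K8imTmG mice, with log2 differences of 0.69 to 2.62. Every K8iΔRank mouse with both lineages had more Cish in basal cells, at -1.32 to -0.09, as did K8imTmG mouse 531 at -0.45. Whether the lineage difference of Cish depended on genotype was not tested.

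**Figure D1:**
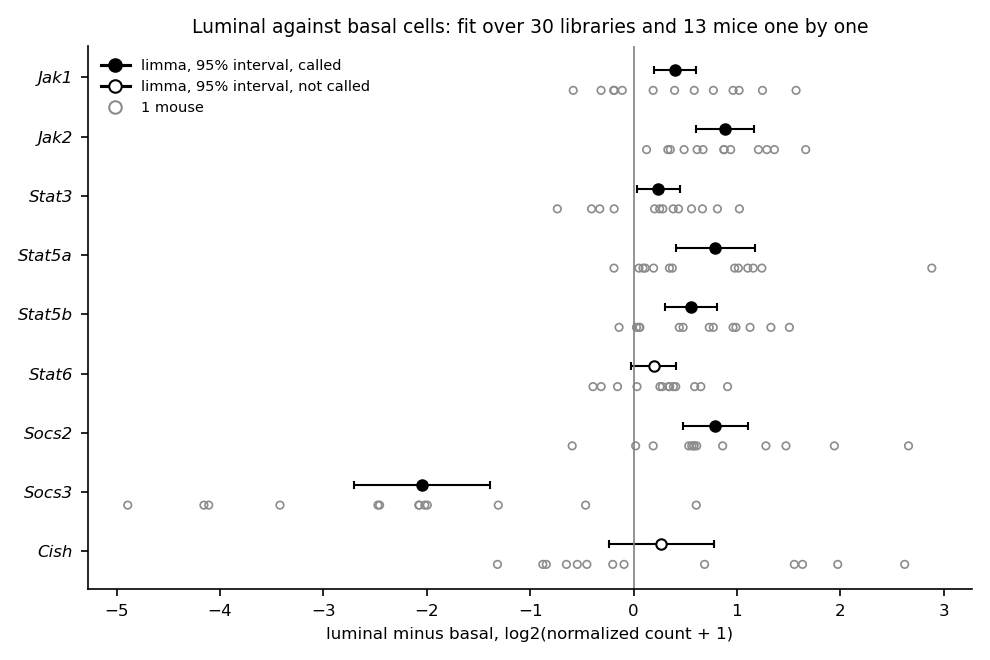
Luminal minus basal log2(normalized count + 1) of the 9 genes. Black points give the limma estimate over 30 libraries with its 95% interval, filled where the adjusted p is below 0.05, and grey circles give the difference within each of 13 mice; Jak2 is above 0 in every mouse, while Socs3 is below 0 in 12 of them.

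Dissociation-response genes, which rise while tissue is being digested and sorted, had a higher median sum in basal libraries, with overlapping ranges. The summed count of 16 such genes was 15385 to 34029 in basal libraries (median 24859) and 11181 to 27027 in luminal libraries (median 18031). The 3 genes most like Socs3 once the 8 group means were removed were Gnb2, Cramp1l and Nr4a1 (Pearson r = 0.94, 0.93 and 0.92 over 30 libraries, which still vary in depth). Of these, only Nr4a1 belongs to those 16. Markers of other cells were also unequal, although the sort gated out CD45+ lymphocytes and CD31+ endothelial cells. All 7 endothelial markers were in the table and summed to 111 to 1392 in basal against 9.71 to 78.6 in luminal libraries, while 3 of 10 immune markers and none of 5 adipocyte markers were in the table, Ptprc, Cd3e and Cd79a being among those outside it. The 7 fibroblast markers summed to 579 to 1078 in basal and 103 to 960.4 in luminal libraries. The part of any of these in the lineage differences was not tested.

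The Socs family and Cish are textbook Stat targets, and a Stat dimer binds the spaced palindrome TTCNNNGAA. In the RefSeq promoter windows of GRCm38.p6, each 300 bases from 250 before to 50 after a transcript start, 8 of the 9 genes had an entry. Only Cish and Socs3 held the palindrome, which reads the same on both strands, and none held the form with 1 more base between the arms. These stretches, with the palindromes in capitals, are shown because they are the only matches among the members.
Cish (chr9:107296654-107296683, plus strand): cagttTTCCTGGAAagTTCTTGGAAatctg
Socs3 (chr11:117969501-117969530, minus strand): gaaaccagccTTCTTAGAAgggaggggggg
The Cish palindromes begin 1 and 12 bases from the start of transcription, and that of Socs3 begins 154 bases before it. Of all 27025 genes with a window, 9.55% held at least 1 palindrome and 0.54% at least 2. A match describes letters and not a bound site. Cish and Socs3 did not move alike, as Socs3 was higher in basal cells and Cish passed no lineage test.

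**Figure D2:**
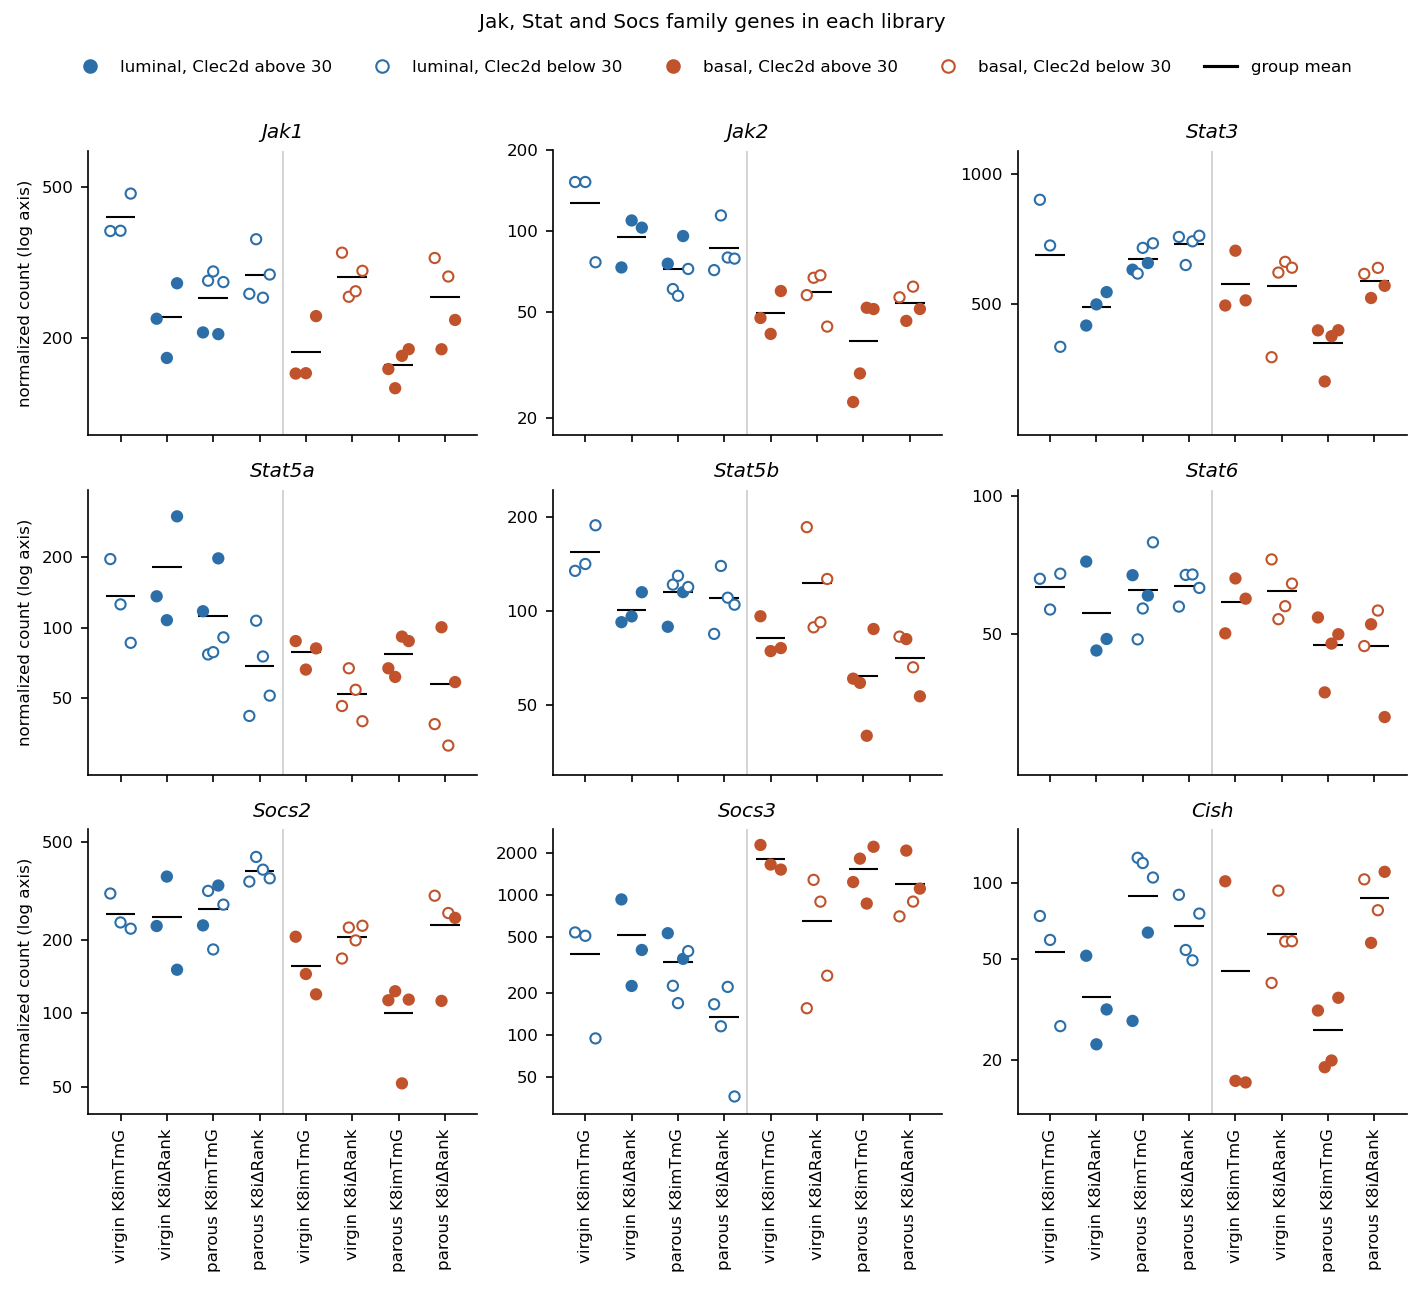
Normalized count of each gene in every library on a log axis that differs in range between genes. Columns are the groups of stage and genotype, blue is luminal and orange basal, filled points are libraries with Clec2d above 30 normalized counts, open points those below, and bars are group means; the basal Socs3 means lie between 647 and 1805 and the luminal ones between 134 and 517.

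Ranked by group mean, the levels formed gradual series, in which the gap between neighbouring groups exceeded the larger of their SDs in 8 of 63 neighbouring pairs. Jak1 was highest in virgin K8imTmG luminal cells at 416 ± 56.5 (SD, n = 3), set off from parous K8iΔRank luminal cells at 294 ± 50.1 (n = 4), and lowest in parous K8imTmG basal cells at 169.6 ± 17.3 (n = 4). Jak2 had the same highest and lowest group, at 127 ± 43.9 and 38.8 ± 14.8, with no gap above the SD between them. Socs2 was highest in parous K8iΔRank luminal cells at 380.2 ± 40.3 (n = 4), above parous K8imTmG luminal cells at 267 ± 62.1 (n = 5), and lowest in parous K8imTmG basal cells at 100.4 ± 32.7 (n = 4). Socs3 ranged from 1805 ± 403 in virgin K8imTmG basal cells (n = 3) to 134 ± 77.9 in parous K8iΔRank luminal cells (n = 4). Stat5a ran from 181 ± 104 in virgin K8iΔRank luminal to 51.8 ± 11.7 in virgin K8iΔRank basal cells, Stat5b from 155 ± 29.3 in virgin K8imTmG luminal to 61.7 ± 19.7 in parous K8imTmG basal cells, and Stat3 from 688 ± 48.6 in parous K8iΔRank luminal to 406 ± 50.1 in parous K8imTmG basal cells. Stat6 was the flattest, with group means of 47.3 to 63.8. Parous K8imTmG basal cells thus had the lowest mean for Jak1, Jak2, Stat3, Stat5b, Socs2 and Cish. The share of all genes with their lowest mean in that group was not determined, so this is not to be read as a trait of the members. Its 4 libraries were all Clec2d-high, with 450064 to 1365008 reads.

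The next question is how basal cells of parous glands, which keep Rank, differ when Rank is targeted in their luminal neighbours. There the feedback gene Cish was higher in the libraries labelled K8iΔRank. Its normalized count was 31.4, 18.7, 19.9 and 35.3 in the 4 K8imTmG libraries and 104, 58.2, 78.3 and 111 in the 4 K8iΔRank libraries. Every K8iΔRank library exceeded every K8imTmG library. The log2 difference was 1.71 (standard error 0.29, limma adjusted p = 0.038), a 3.27-fold rise on the log2(normalized count + 1) scale, and it was the only call among the 9 genes, against 0.906% of the 10592 genes tested. The K8imTmG values rested on 5 to 31 reads and the K8iΔRank values on 73 to 242 reads per library.

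Socs2 was also higher in 3 of the 4 K8iΔRank libraries without passing the test. It stood at 302, 112, 257 and 245 in K8iΔRank and at 113, 123, 51.8 and 114 in K8imTmG libraries. Mouse 794, at 112, lay within the control range. The difference was 1.17 (standard error 0.34, limma adjusted p = 0.087), and it passed with DESeq2 on the recovered reads (difference 1.15, adjusted p = 0.020) and in the fit of all 30 libraries (adjusted p = 0.029). Stat3 was at 588, 517, 607 and 552 in K8iΔRank and at 435, 332, 422 and 436 in K8imTmG libraries. The groups did not overlap, as in 12.0% of all genes tested, and the difference of 0.48 had a limma adjusted p of 0.143. Jak1 differed by 0.57 (adjusted p = 0.148) and Jak2 by 0.54 (adjusted p = 0.280), while Stat5a, at -0.54, and Socs3, at -0.39, pointed down (adjusted p = 0.336 and 0.531). Stat5b differed by 0.23 and Stat6 by -0.02. The median over the 9 genes was 0.48, beside 0.06 over all genes.

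The Cish call did not hold under every setting. The adjusted p rose to 0.051 with no filter on low values, to 0.271 with the Clec2d side as a term, where 0.0% of all genes were called, and to 0.313 among Clec2d-high libraries alone, 2 against 4, where the difference was 1.63. Leaving out mouse 532, 534, 557, 787, 798 or 830 brought it to between 0.056 and 0.134, with differences from 1.57 to 1.81, and it passed when mouse 558 or 794 was left out. All 4 K8imTmG libraries were Clec2d-high. Within the K8iΔRank group Cish was at 58.2 and 111 in the 2 high libraries and at 78.3 and 104 in the 2 low ones, and the sides overlapped. In parous K8imTmG luminal cells, the other group with both sides, Cish was at 28.6 and 63.9 in high and at 106 to 126 in low libraries. The sides were apart there, as for 53.5% of all genes. Depth differed between the parous basal groups too, with 450064 to 1365008 reads in K8imTmG and 1844364 to 2996649 in K8iΔRank libraries. Its part in the Cish difference was not tested.

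In virgin glands the same basal comparison called none of the 9 genes, against 8.99% of the 10616 genes tested (limma), while 3 of them had an unadjusted p below 0.05, as did 3111 of all genes. Jak1 was higher and Socs3 lower in K8iΔRank basal cells without overlap, a pattern shared by 28.2% of all genes tested. Jak1 was at 336, 257, 266 and 301 in K8iΔRank and at 161, 161 and 228 in K8imTmG libraries, a difference of 0.67 (standard error 0.21, limma adjusted p = 0.076). Socs3 was at 154.6, 1276, 892 and 264 in K8iΔRank and at 2264, 1641 and 1511 in K8imTmG libraries. The K8iΔRank values spread widely, mice 820 and 825 lying far below mice 821 and 822, and the difference of -1.93 (standard error 0.63) had a limma adjusted p of 0.079. Of the others, Stat5a stood at -0.61 (adjusted p = 0.161), Stat3 at -0.03, Stat6 at 0.08, Jak2 at 0.25, Socs2 at 0.41 and Stat5b at 0.52. Cish was at 40.4, 93.6, 58.9 and 59.1 against 102, 16.5 and 16.3, where the last pair rested on 4 and 3 reads, and its difference was 0.96 (adjusted p = 0.305). Whether the Cish difference changed with parity was tested by the interaction of genotype and stage, which was 0.75 (standard error 0.68, limma adjusted p = 0.713) and turned to -0.11 without virgin K8imTmG mouse 531, the one at 102. The Clec2d sides follow genotype completely among these virgin basal libraries, which therefore cannot be told apart from it. Despite the gate against CD31+ cells, the endothelial sum was 349 to 1392 in virgin K8iΔRank and 245 to 668 in virgin K8imTmG basal libraries, and the dissociation-response sum was 19896 to 30842 and 29924 to 31062, whose parts in the Socs3 difference were not tested.

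In luminal cells, where Cre is induced, no member passed the genotype test at either stage. In virgin glands, against 0.984% of 10066 genes called by limma, Jak1 and Stat5b were lower in K8iΔRank libraries without overlap, as 28.3% of genes were apart in either direction. Jak1 was at 225, 177 and 279 in K8iΔRank and at 383, 384 and 481 in K8imTmG libraries, a difference of -0.89 (standard error 0.25, limma adjusted p = 0.090). Stat5b was at 92.1, 96.1 and 115 against 135, 142 and 188, a difference of -0.60 (adjusted p = 0.194). The other differences were -0.55 for Cish, -0.37 for Jak2, -0.33 for Stat3, -0.21 for Stat6, -0.12 for Socs2, 0.35 for Stat5a and 0.56 for Socs3, none of which passed. The K8imTmG libraries were all Clec2d-low and the K8iΔRank libraries all high, so that these differences cannot be told apart from the split. The 7 fibroblast markers summed to 729 to 856 in the K8iΔRank and to 246, 258 and 960.4 in the K8imTmG libraries as lowest, median and highest value.

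In parous luminal cells 0.0991% of 10090 genes were called by limma and no member was, with 2 at an unadjusted p below 0.05 beside 2009 of all genes. Socs2 was at 345, 435, 386 and 356 in the 4 K8iΔRank libraries and at 228, 316, 182, 332 and 278 in the 5 K8imTmG libraries. All K8iΔRank values lay above all controls, as 9.73% of genes did or lay below, and the difference of 0.53 (standard error 0.20) had a limma adjusted p of 0.181. Socs3 was at 165, 115, 219.6 and 36.3 in K8iΔRank and at 531, 224, 168, 348 and 395 in K8imTmG libraries, a difference of -1.46 (standard error 0.50, adjusted p = 0.156), with the dissociation-response sum at 11181 to 16437 and 16166 to 27027. Stat5a pointed down at -0.69 (adjusted p = 0.277), and Cish at -0.25, Stat5b at -0.08, Stat6 at 0.04, Stat3 at 0.11, Jak1 at 0.21 and Jak2 at 0.25 were nearer to 0. All 4 K8iΔRank libraries were Clec2d-low, while 2 of the K8imTmG libraries were high and 3 low. Among the low ones, as a description, Cish was at 49.6 to 90.2 in K8iΔRank and at 106 to 126 in K8imTmG libraries. Stat5a overlapped there, at 41.9 to 107.1 and at 76.8 to 90.9. The 2 high K8imTmG libraries had Stat5a at 118 and 198. Socs2 was thus above the control mean in parous K8iΔRank cells of both lineages, by 0.53 in luminal and 1.17 in basal cells, although neither passed.

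Whether the genotype difference itself changed with parity was tested in luminal cells by the same interaction, which called 1 of the 9 genes, against 12.9% of 10262 genes tested. The K8iΔRank minus K8imTmG difference of Jak1 was -0.89 in virgin and 0.21 in parous glands, an interaction of 1.10 (standard error 0.30, limma adjusted p = 0.030). The call was lost with the Clec2d side as a term, where the interaction was 0.35 (adjusted p = 0.714) and 0.0% of all genes were called, and when mouse 538, 794, 821, 822 or 830 was left out, with 0.93 to 1.10 (adjusted p from 0.056 to 0.082). The interaction of Socs3 was -2.02 (adjusted p = 0.141) and that of Stat5a -1.04 (adjusted p = 0.222), which turned to 0.35 with the Clec2d side as a term, and those of the other 6 genes lay between 0.25 for Stat6 and 0.66 for Socs2. In basal cells the interaction called 0 of 10607 genes by limma (0.0%), 1082 genes having an unadjusted p below 0.05, and DESeq2 and edgeR called 18 and 0. The members' interactions there ran from -0.30 for Stat5b to 1.54 for Socs3 (adjusted p = 0.511).

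**Figure D3:**
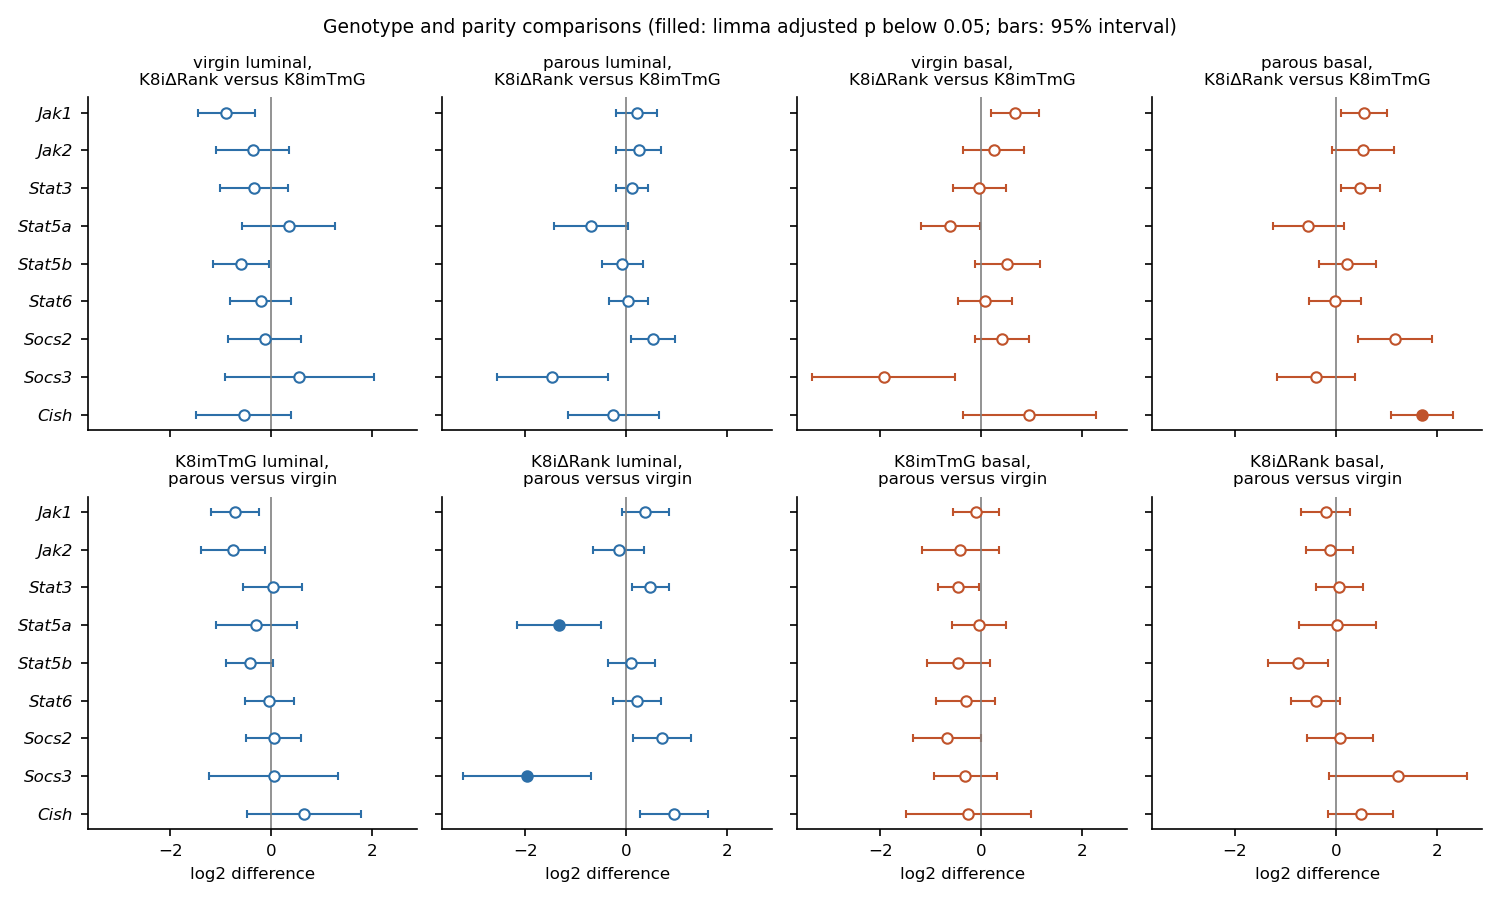
Log2 difference of each gene on the log2(normalized count + 1) scale, with its 95% interval, in the 8 comparisons of genotype (top) and parity (bottom), luminal in blue and basal in orange. Filled points have a limma adjusted p below 0.05 and are Cish in parous basal cells and Stat5a and Socs3 in K8iΔRank luminal cells; most other intervals cross 0.

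Parity was compared within each genotype. In K8iΔRank luminal cells Stat5a and Socs3 were lower after parity, 2 calls among the 9 genes against 16.0% of 10249 genes tested. Stat5a was at 41.9, 107.1, 75.3 and 51.2 in the 4 parous and at 136, 107.7 and 299.9 in the 3 virgin libraries. The groups were separated by less than 1 normalized count, between parous mouse 794 and virgin mouse 822. The difference was -1.33 (standard error 0.38, limma adjusted p = 0.038). Socs3 was at 165, 115, 219.6 and 36.3 after parity and at 924.9, 223 and 403 before, a difference of -1.96 (standard error 0.58, limma adjusted p = 0.041) with parous mouse 798 and virgin mouse 822 almost touching. Stat3 was higher after parity without overlap, at 716, 617, 699.5 and 721 against 447, 499.9 and 534 (difference 0.48, adjusted p = 0.073). Groups that do not overlap made up 29.7% of all genes. Cish, at 0.94, and Socs2, at 0.71, had adjusted p values of 0.058 and 0.087. Jak1 differed by 0.38, Stat6 by 0.22, Stat5b by 0.10 and Jak2 by -0.15, none of which passed.

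Clec2d was low in each parous and high in each virgin K8iΔRank luminal library, so that parity cannot be told apart from the split, and with the side as a term neither gene passed, Stat5a at -0.34 and Socs3 at -1.10 (adjusted p = 0.999 for each), nor did any other gene (0.0%). The Stat5a call was also lost without mouse 787, 798, 830, 821 or 825, at -0.90 to -1.46, and the Socs3 call without mouse 787, 794, 830, 821 or 825, at -1.42 to -2.15. The dissociation-response sum was 11181 to 16437 in the parous and 19570 to 22205 in the virgin libraries.

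In K8imTmG luminal cells limma called no member, against 2.2% of 10279 genes. Jak1 was at 207, 283, 299.6, 205 and 281 in the 5 parous and at 383, 384 and 481 in the 3 virgin libraries. The groups did not overlap, as in 16.9% of genes, and the difference was -0.72 (standard error 0.22, limma adjusted p = 0.107), which passed with DESeq2 on recovered reads (-0.67, adjusted p = 0.036). Stat5b was lower without overlap as well, by 0.42 on the log2 scale (adjusted p = 0.275), and Jak2 differed by -0.76 (adjusted p = 0.166). These 8 libraries include virgin controls that were all Clec2d-low and parous ones of both sides. Within the low side, Jak1 was at 281 to 299.6 in 3 parous and at 383 to 481 in 3 virgin libraries, a difference of -0.52 (limma adjusted p = 0.080). Csn1s1, a milk casein and Stat5 target, was higher after parity by 8.18 on the log2 scale in the same comparison (standard error 0.25, limma adjusted p = 1e-07), while Stat5a differed by -0.29 (adjusted p = 0.672). Cish stood at 0.65, and Socs3, Socs2, Stat3 and Stat6 lay within 0.06 of no difference, although the sign of Socs3 turned to -0.18 with DESeq2 and -0.91 with array weights.

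In basal cells parity called 0 of 10538 genes in K8imTmG and 0 of 10525 in K8iΔRank mice by limma (0.0% each), with 969 and 1036 genes at an unadjusted p below 0.05. DESeq2 called 44 and 91 genes and edgeR 8 and 0, none of the 9 members among them. Stat3 was lower after parity in K8imTmG cells without overlap, at 435, 332, 422 and 436 against 497, 665 and 511 (difference -0.45, adjusted p = 0.494, with 9.35% of genes apart). Stat5b was lower after parity in K8iΔRank cells without overlap, at 82.8, 81.3, 66.0 and 53.3 against 186, 88.7, 92.1 and 127 (difference -0.75, adjusted p = 0.487, with 6.1% of genes apart). All 9 differences were negative in K8imTmG basal cells, with a median of -0.31 beside 0.0018 over all genes, led by Socs2 at -0.68, but 3 of them turned positive on leaving out a mouse, Cish to 0.60 without mouse 531, Jak1 to 0.07 without mouse 568 and Stat5a to at most 0.06 without mouse 531, 532 or 534. In K8iΔRank basal cells 5 of 9 were positive, Socs3 being the furthest from 0 at 1.23 (adjusted p = 0.497) and mice 820 and 825 holding its low virgin values.

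Since the Clec2d split coincided with genotype or stage in most comparisons, the genes were also described by side within each lineage, as a description without a test. In basal cells Jak1 was at 147 to 228 in the 9 high libraries and at 257 to 336 in the 6 low libraries, so that the sides did not overlap, as in 11.4% of 10607 genes. In luminal cells it was at 177 to 279 in the 5 high and at 255 to 481 in the 10 low libraries, which overlapped, and no member had its sides apart there, as 8.82% of 10262 genes did. The 2 groups with both sides showed the same order, at 205 and 207 against 281 to 299.6 in parous K8imTmG luminal cells and at 187 and 223 against 290.5 and 325 in parous K8iΔRank basal cells. Stat5a had the opposite order, at 118 and 198 against 76.8 to 90.9 in the former group and at 58.5 and 100.4 against 31.3 and 38.6 in the latter. In these groups of 5 and 4 libraries the sides were apart for 53.5% and 59.7% of all genes.

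**Figure D4:**
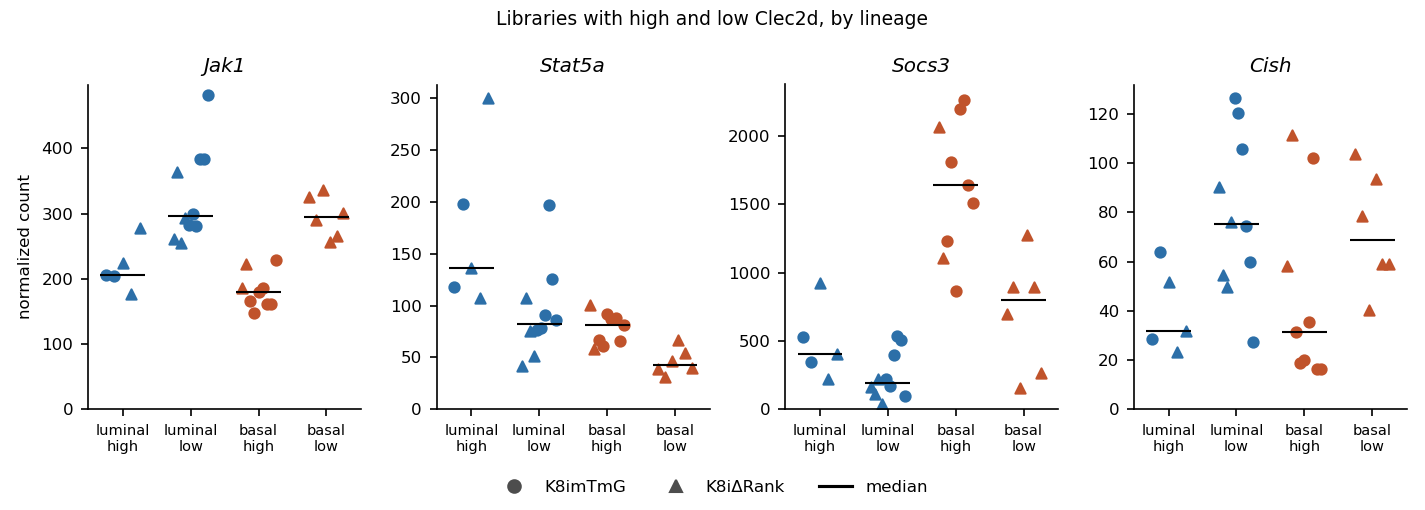
Normalized counts of Jak1, Stat5a, Socs3 and Cish in libraries with Clec2d above (high) or below (low) 30 normalized counts, by lineage, on linear axes from 0. Circles are K8imTmG, triangles K8iΔRank and bars medians; the 9 high basal libraries have less Jak1, 147 to 228, than the 6 low ones, 257 to 336.

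The remaining genes of the pathway were taken from 8 lists with 108 genes besides the members, of which 76 were in the table. Between lineages 26 were higher in luminal and 26 in basal cells, beside 28.7% and 27.0% of all 11133 genes, the shares against which each list below is to be read. Of 18 receptors, 4 were higher in luminal and 8 in basal cells. Prlr, the prolactin receptor, had a luminal excess of 5.59 with a standard error of 0.37 (limma adjusted p = 1.6e-13). That of Il6ra, the interleukin-6 receptor, was 2.09 with a standard error of 0.20 (limma adjusted p = 3.3e-10). Il13ra1, a receptor chain for interleukin-13, was higher by 0.92, and Lifr, the receptor for leukaemia inhibitory factor, was higher in basal cells, at -1.24 on the log2 scale. Prlr signals through Jak2 and Stat5, and Il6ra and Lifr act with the shared chain gp130. The gp130 gene itself, Il6st, at -0.44, and Osmr, at -0.77, were higher in basal cells as Lifr was, while Il11ra1 and Cntfr did not pass. Among these receptors of the gp130 kind only Il6ra was higher in luminal cells (Il6st, Osmr, Il11ra1 and Cntfr are named after their values were seen).

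The other Socs genes were divided as Socs2 and Socs3 were. Socs1 differed by -2.17 (standard error 0.45, limma adjusted p = 0.00016) and Socs7 by -1.24, both higher in basal cells, whereas Socs4 was higher in luminal cells by 0.40 and Socs5 and Socs6 did not pass. Among 13 phosphatases, Pias genes and adaptors, 3 were higher in luminal cells, led by the phosphatases Ptpn6 at 1.48 and Ptpn1 at 1.12, and 6 in basal cells, among them the adaptor Sh2b3 at -0.99 and the phosphatase Ptpn11 at -0.72. Of 3 ligands, Il15 at 0.79 and Areg at 4.96 were higher in luminal cells, although Areg acts on the epidermal growth factor receptor and not through a Jak-coupled receptor.

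Beside the same 28.7% and 27.0% of all genes, 10 of 14 Stat5 targets were higher in luminal cells and 1, Igf1, was higher in basal cells (median 2.74; Igf1 is named after its value was seen). They included Csn3 at 4.67 and Elf5, an alveolar transcription factor, at 4.94, which also stand in marker lists of luminal cells. Of 19 Stat3 targets, 3 were higher in luminal and 10 in basal cells (median -0.32), with Myc at -2.34 and Ctsl, a lysosomal protease, at -1.70 in basal cells and Bcl3 at 1.53 and Hif1a at 1.19 in luminal cells. Of 6 Stat6 targets, 3 were higher in luminal cells, led by Arg1 at 4.94 and Tgm2 at 2.23, and 2 in basal cells.

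**Figure D5:**
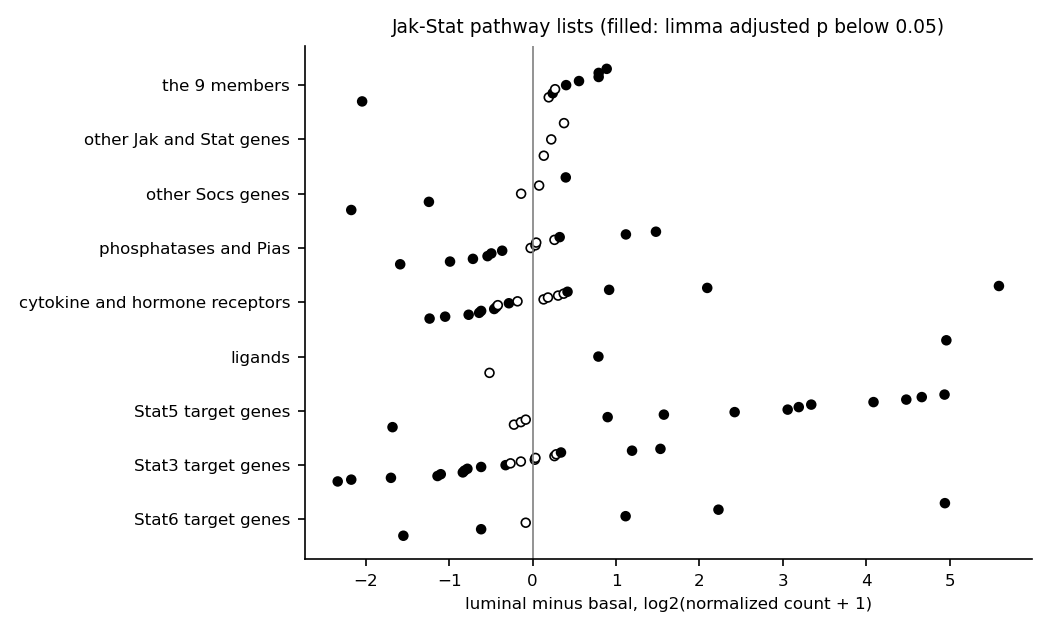
Luminal minus basal log2(normalized count + 1) of every measured gene of the members and of the 8 pathway lists, 1 point per gene, filled where the limma adjusted p is below 0.05. The Stat5 targets reach 4.94 on the luminal side, and 10 of the 19 Stat3 targets are filled on the basal side.

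The comparisons of genotype and parity moved fewer of these genes. In parous basal cells, where Cish was called, none of 72 pathway genes tested passed, Stat5 targets included, beside 0.906% of all genes. That share is too low for the absence of calls to describe these lists. In virgin basal cells 3 of 69 were higher and 9 lower in K8iΔRank, beside 4.27% and 4.72% of all genes, among them Il4ra at 1.59 and Ptpn1 at 1.29 (higher) and Osmr at -1.43 and Junb at -1.46 (lower), the last also 1 of the 16 dissociation-response genes. Il4ra stands in 3 of the lists and was counted once here. In virgin luminal cells 1 of 70, Csn3 at 2.15, was higher, beside 0.626% of all genes. In parous luminal cells 0 of 74 passed by limma, beside 0.0991% of all genes. After parity 5 of 74 were higher and 4 lower in K8imTmG luminal cells, beside 1.06% and 1.14% of all genes, of which the 4 Stat5 targets among the 5 were the caseins Csn1s1, Csn1s2a, Csn2 and Csn3, with Ptpn1 at -1.56 and Lifr at -1.95 among the 4. In K8iΔRank luminal cells 7 of 73 were higher and 8 lower after parity, beside 8.25% and 7.78% of all genes, with Csn1s1 at 5.65 and Csn2 at 5.03 among the former and Cntfr at -2.99 and Junb at -1.41 among the latter.

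The genes share few features of position. Stat5b, Stat5a and Stat3 lie side by side on chromosome 11 of GRCm39, in GENCODE vM39 at 100671556 to 100741589 (minus strand), 100750177 to 100776065 (plus strand) and 100775924 to 100830450 (minus strand). The ends of Stat5a and Stat3 overlap by 142 bases on opposite strands. The kit marks strand, but the strand setting used in counting is not given in the sources used here, so a part of the reads of either gene could have been counted for the other. Socs3 lies on the same chromosome at 117856905 to 117860898 (minus strand). Jak1 is on chromosome 4 at 101008838 to 101122487 (minus strand), Jak2 on chromosome 19 at 29228677 to 29290505 (plus strand), Stat6 and Socs2 on chromosome 10 at 127477821 to 127496862 (plus strand) and 95219523 to 95253929 (minus strand), and Cish on chromosome 9 at 107173225 to 107179983 (plus strand). No member overlaps an exon of another gene on its own strand. Stat5a and Stat5b are close paralogs, and how reads that match both were assigned is not given in the sources used here, so their separate values carry that uncertainty. Levels were not compared between genes, because a 3′ tag count depends on how well each transcript end is captured.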

How the data were processed

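Total RNA of sorted cells was sequenced as 3′ tags (QuantSeq) in 30 libraries of 17 mice. The authors trimmed the reads, deduplicated them by unique molecular identifiers with UMI-tools, aligned them to GRCm39 with Bowtie2 and divided the reads per gene by DESeq2 size factors, and the deposited signal values are these normalized counts. Values divided by the worth of 1 read in their library gave back the reads, whole for 100% of values within 0.01. The lowest chi-square per degree of freedom over 43 replicate pairs was 2.67, so each pair differed by more than sampling noise.

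A gene was tested if 25% or more of the libraries in a comparison exceeded 10 normalized counts, with values on the log2(normalized count + 1) scale and limma 3.58.1 (trend, Benjamini-Hochberg adjustment, threshold 0.05) in R 4.3.3, as the unit is not raw counts. Comparisons were luminal against basal, K8iΔRank against K8imTmG and parous against virgin. The p-values of genotype and parity rest on the spread between mice. Those of luminal against basal rest on the spread between the 30 libraries without a mouse term, although 13 mice gave both lineages. Alternatives were pseudocounts of 0.5 and 4, no filter, a minimum mean of 50, array weights, quantile normalization, DESeq2 1.42.0 and edgeR 4.0.16 on recovered reads, a single fit of all libraries, the Clec2d side as a term or alone (threshold 30 normalized counts), mouse as a block, and leaving out each mouse. On recovered reads, luminal against basal gave 6331 genes with DESeq2 and 6219 with edgeR, beside 6197 with limma. The scripts were tested on simulated data.

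Luminal and basal libraries of 13 mice come from the same animal. Deviations from the group means correlated between them with r from -0.24 to 0.34 (median 0.09, above 0.1 in 6 of 13), and the pairing rests on the animal. All 9 members were named in every comparison. Genes of a pathway list could be named in a comparison if they passed the threshold and were among its 4 with the lowest adjusted p, and not all such genes were named. The members and lists were chosen with earlier results of these data known. Gene positions are from GENCODE vM39, while the authors counted with vM26. Intervals cover the spread between mice or, for luminal against basal, between libraries, and counting error is largest where few reads were recovered.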

Additional observations from a re-analysis of the deposited data

Results flagged for a closer look

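In 45 groups of 4 or 5 libraries, 1 per gene and group, 3 held a library far below the rest, and chance gives about 1 in 20. Socs2 was at 51.8 in parous K8imTmG basal mouse 557, beside 113 in the next lowest library. Stat3 was at 332 in parous K8imTmG basal mouse 534, beside 422, and at 377 in virgin K8iΔRank basal mouse 820, beside 592.

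The genotype difference of Jak1 in luminal cells depended on parity, with an interaction of 1.10 (standard error 0.30, limma adjusted p = 0.030), which did not pass with the Clec2d side as a term. Jak1 also pointed in opposite directions in virgin glands, at -0.89 in luminal and 0.67 in basal cells, with no overlap between genotypes in either lineage. The difference between these lineages was not tested. In luminal cells the K8imTmG and in basal cells the K8iΔRank libraries were the Clec2d-low ones, and they held more Jak1 in both cases, so that genotype cannot be told apart from the split.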

How the results depend on the processing

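Counts of members called, by comparison, varied as follows, and the cause was not tested. The share of all genes called under a setting stands in parentheses where it is given. Counts without a share, as on leaving out a mouse, are not to be read as a trait of the members. In virgin luminal cells (0 reported) array weights called 3 (2514 of 10066 genes) and the fit of all 30 libraries 1 (1.87%). In virgin basal cells (0) the fit of all libraries called 2 (20.3%), and leaving out a mouse gave 0 to 1, with Socs3 called without mouse 821 (-2.42) and Cish without mouse 531 (1.81). In parous basal cells (1) array weights called 5 (24.3%), DESeq2 2 (6.09%), the fit of all libraries 2 (3.4%) and the Clec2d side as a term 0 (0.0%), and no filter and Clec2d-high libraries alone called 0 each, with 0 to 3 on leaving out a mouse and the 3 reached without mouse 794. For parity in K8imTmG luminal cells (0) array weights called 5 (38.8%), DESeq2 1 (10.3%) and the fit of all libraries 1 (8.28%). For parity in K8iΔRank luminal cells (2) the fit of all libraries called 1 (3.96%), Socs3 being lost, and the side term 0 (0.0%), with 0 to 3 on leaving out a mouse. The Socs3 call was lost in 3 of 10 alternatives and the Stat5a call in 1. For the luminal interaction (1) array weights called 3 (26.0%) and the side term 0 (0.0%), with 0 to 1 on leaving out a mouse. With mouse as a replicate block, luminal against basal called 6 members instead of 7 (55.6%), Stat3 being lost and the calls of the other members unchanged. The Stat3 call was lost in 3 of 10 alternatives, the block among them. The block could be fitted for no other comparison, since each mouse has 1 genotype and stage.

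Signs changed in 46 of 1021 alternative values and 46 of 963 leave-one-out values, none of them called as reported. With the side term the luminal interaction of Stat5a went from -1.04 to 0.35, its virgin luminal difference from 0.35 to -0.65 and its virgin basal one from -0.61 to 0.39, those of Cish and Socs3 in virgin luminal cells from -0.55 to 0.31 and from 0.56 to -0.30, and that of Socs3 in parous basal cells from -0.39 to 0.04. Stat5a in parous basal cells went from -0.54 to 0.0152 among Clec2d-high libraries. Socs3 for parity in K8imTmG luminal cells (0.06) became -0.91 with array weights (adjusted p = 0.018), -0.18 with DESeq2, -0.17 with edgeR, -0.29 with the side term and -0.27 among Clec2d-low libraries, and ranged from -0.76 to 0.49 on leaving out a mouse, as Stat5a there did from -0.58 to 0.013. Depth limits Cish most, with as few as 3 reads.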

Other observations

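The genes whose log2(normalized count + 1) followed each member most closely over the 30 libraries are given as a description, since the libraries share lineage, depth and the Clec2d split. Gna13, a G protein subunit, was closest to Jak1 (Pearson r = 0.94), ahead of Nrd1 (0.92), and remained among its 3 closest once group means were removed (0.85). Yap1, the Hippo pathway co-activator, and Ccng2 were closest to Socs3 (0.93 each). Atp8b1 was closest to Jak2 (0.86), Gapvd1 to Stat5b (0.86), Vps37b to Socs2 (0.86), Mbtd1 to Stat3 (0.82), Gle1 to Stat5a (0.80), BC005537 to Cish (0.80) and Cnnm3 to Stat6 (0.69).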
